A study of Homo sapiens with 16 samples.

Results

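Serum amyloid A and complement genes were followed in U2OS cells, a human osteosarcoma line, with and without knockdown of the transcription factor RFX7 and with and without activation of p53. The set holds 9 genes, SAA1, SAA2, C3, CFB, C1R, C1S, CD46, CD55 and CD59, among 23396 genes in any of the authors' 4 comparison tables. The genes were chosen by name, with the fold changes of all 4 comparisons already known, so their values and the authors' adjusted p-values are given as a description and support nothing further. Of the 9 genes, 8 were in all 4 tables, and CFB was in the table for Nutlin-3a in control cells alone.

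The 16 poly(A) RNA-seq libraries formed 4 groups of 4. U2OS cells received a control siRNA (siControl) or an siRNA against RFX7 (siRFX7), and were then kept for 24 h in Nutlin-3a (10 µM) or in the solvent DMSO. Nutlin-3a occupies the p53 pocket of MDM2, which stabilises p53. All groups came from 1 cell line, all were transfected, and nothing in the labels says whether the libraries of a group came from separate cultures, so the errors may be technical. The siRNA sequences are not given in the sources used here.

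The acute phase response is the change in secreted proteins that follows inflammatory cytokines such as IL-6 and IL-1, classically in the liver, through JAK and STAT3 signalling and NF-kB. Serum amyloid A proteins are among its most inducible products. Complement is a cascade of secreted proteases that cleaves C3 on target surfaces and leads to the membrane attack complex, and cells protect themselves from it with membrane proteins such as CD46, CD55 and CD59.

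The tables give comparisons of 2 groups and no value of a single library, so it cannot be said whether single libraries overlapped between groups. Errors are the authors' standard errors (SE) of a log2 fold change. A gene was counted as called where the authors' adjusted p, from DESeq2 and over all genes of a table, was under 0.05. The level of a gene in each group was worked out from a table's mean normalised read count and fold change, and put on 1 scale across tables. In bulk RNA, fewer expressing cells and less RNA per cell cannot be told apart.

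The tables held between 19511 and 23353 genes, with mean normalised counts that added up to between 27946376 and 35311111. In the authors' deposited tables RFX7 was at 18.6% of its control level with siRFX7 under DMSO and at 19.4% under Nutlin-3a. CDKN1A and MDM2, classical p53 targets, rose with Nutlin-3a by 3.24 ± 0.04 and 2.89 ± 0.04 (SE) on the log2 scale in the authors' deposited table for siControl. All 6 osteoblast and mesenchymal markers were present in that table, with base means (mean normalised counts) from 371 to 84577. Of 6 hepatocyte markers, ALB, APOA1, TTR and FGB were in no table, APOB had a base mean of 3.72, and SERPINA1 one of 1489. Of 5 leukocyte markers 3 were listed, at base means of up to 5.21. All 4 epithelial markers were listed, KRT8 at a base mean of 24067, and all 3 endothelial ones at up to 17.8.

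SAA1 and SAA2 lie on opposite strands of chromosome 11 and encode near-identical proteins, which decides how far their reads can be told apart. SAA1 (ENSG00000173432) spans chromosome 11, 18266174 to 18269977 (plus strand), and SAA2 (ENSG00000134339) spans 18239223 to 18248643 (minus strand), in GENCODE 29 on GRCh38. Coding sequences were compared between annotated SAA1 and SAA2 transcripts of equal coding length, and the pair with the fewest differences was kept. Its coding sequences have 369 bases each and differ at 11 of them (97.0% identity), with an identical run of 186 bases. The stretch of 120 coding bases that holds 10 of the 11 differences is shown, with the bases that differ in capitals. It runs from coding base 204 to 323 and joins 2 exons, at chr11:18269307-18269809 for SAA1 and chr11:18245423-18245936 for SAA2.
SAA1: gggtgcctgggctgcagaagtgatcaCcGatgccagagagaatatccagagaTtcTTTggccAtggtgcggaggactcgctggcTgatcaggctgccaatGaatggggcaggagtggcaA
SAA2: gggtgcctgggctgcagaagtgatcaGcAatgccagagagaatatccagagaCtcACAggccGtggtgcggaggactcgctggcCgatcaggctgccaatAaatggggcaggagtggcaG

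Of all 75-base stretches in SAA1 transcripts, 35.0% also occur in SAA2, and 13.6% of those in SAA2 occur in SAA1. With 50-base stretches these shares were 46.6% and 17.9%, and with 100-base stretches 28.5% and 11.2%. The read length and the handling of reads that match both genes are not given in the sources used here, so the SAA1 and SAA2 values are uncertain to that extent. SAA2 also overlaps the read-through gene SAA2-SAA4 on the same strand, by 9413 bases.

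The 3′ untranslated regions of these copies differ in a short sequence. The heptamer GTATCTA was picked in earlier work from a scan of these same siRFX7 fold changes as a sequence common in the 3′ untranslated regions of genes that were lower. SAA1 carries it in 4 of 4 annotated transcripts with such a region. SAA2 carries it in 0 of 6, and its best-matching stretch matches the SAA1 stretch at 24 of 30 bases and the heptamer at 6 of 7. The substitution in the heptamer is T13C, counted from the first base of the SAA1 stretch, with the SAA1 base first. Both stretches are shown with the heptamer position in capitals, chr11:18269929-18269958 (plus strand) for SAA1 and chr11:18245249-18245278 (minus strand) for SAA2.
SAA1: gtacacaatggGTATCTAataaatacttaa
SAA2: gcatataatagGCATCTAataaatgcttaa

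CD55 is the other gene of the 9 with the heptamer, in 1 of 8 transcripts, on chromosome 1, plus strand, at chr1:207360674-207360703.
CD55: ttcctattagaGTATCTAtattacttgtta
Among 13763 genes with a 3′ untranslated region in the authors' deposited table for DMSO, 8.63% carried the heptamer, against 18.8% of the 2693 called lower and 4.76% of the 3274 called higher. Under Nutlin-3a the shares in the authors' deposited table were 8.57% of 14062 genes, 17.98% of 2464 called lower and 5.95% of 3027 called higher. Among genes called with a log2 fold change of -1 or lower, the class that holds SAA1 and SAA2, the share was 62.3% of 69 in DMSO and 45.5% of 88 in Nutlin-3a. These shares support nothing, since the heptamer was picked from the same fold changes for being common in genes that were lower. RFX7 itself carries the heptamer too. The part of such matches in the values of SAA1, SAA2 and CD55 was not tested.

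SAA1 was the member that the knockdown moved most. Its level was 521 normalised counts in siControl with DMSO and 658 with Nutlin-3a. In siRFX7 cells its level was 117 with DMSO and 114 with Nutlin-3a. Both siRFX7 groups were thus far below both siControl groups. The authors' deposited tables gave log2 fold changes with siRFX7 of -2.15 ± 0.12 (SE) for SAA1 in DMSO and -2.51 ± 0.11 in Nutlin-3a, with DESeq2 adjusted p-values of 2.21e-67 and 8.43e-105. This left 22.6% and 17.5% of the control level. Among all genes, SAA1 had the lowest fold change of 20335 under Nutlin-3a and the fifth lowest of 19511 under DMSO in the authors' deposited tables.

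SAA2, the other acute phase serum amyloid A gene, was measured at a level of 62.9 normalised counts in siControl with DMSO and 92.8 with Nutlin-3a. In siRFX7 cells its level was 21.9 and 27.4, so again both siRFX7 groups were the lower ones. The authors' deposited tables gave SAA2 log2 fold changes of -1.53 ± 0.26 (SE) in DMSO and -1.77 ± 0.24 in Nutlin-3a (DESeq2 adjusted p 6.35e-08 and 2.98e-12). SAA1 made up 89.2% of the summed level of both genes in siControl with DMSO and 80.6% in siRFX7 with Nutlin-3a. With both genes added, the log2 fold changes with siRFX7 were -2.08 under DMSO and -2.41 under Nutlin-3a.

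**Figure D1:**
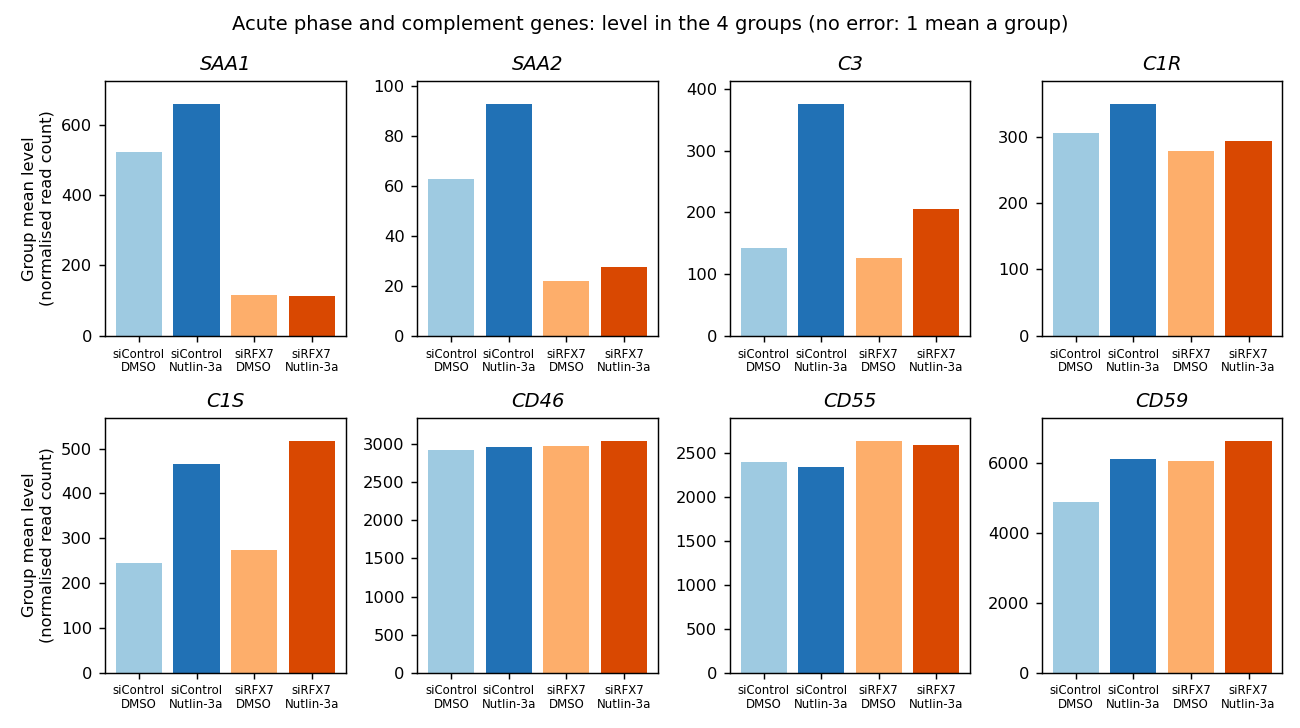
Mean level of each gene in the 4 groups, in normalised read counts worked out from the authors' tables, 1 bar for the mean of 4 libraries; no error can be drawn because no library is given singly. SAA1 and SAA2 are low in both siRFX7 groups, C3 and C1S are high with Nutlin-3a, CD46 lies between 2922 and 3046 in all groups, and CD59 is lowest in siControl with DMSO.

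With Nutlin-3a, the SAA genes rose moderately in control cells. SAA1 rose by 0.34 ± 0.08 (SE, adjusted p 8.20e-05 by DESeq2) and SAA2 by 0.56 ± 0.17 (adjusted p 0.00368) in the authors' deposited table for siControl. For siRFX7 cells, the authors' deposited table had -0.03 ± 0.18 for SAA1 and 0.33 ± 0.35 for SAA2, neither of them called. The SAA1 responses differed by -0.37 ± 0.20 (siRFX7 minus siControl, 95% interval -0.76 to 0.02, adjusted p 0.853 over all genes by a two-sided normal test). The SAA2 responses differed by -0.23 ± 0.39 (95% interval -1.01 to 0.54). At the low counts of SAA1 and SAA2 in siRFX7 cells a difference of this size was not detectable.

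C3 (ENSG00000125730), the central component on which all complement pathways converge, lies on chromosome 19, 6677704 to 6730562 (minus strand). Its level was 142 normalised counts in siControl with DMSO and 375 with Nutlin-3a. In siRFX7 cells its level was 125 with DMSO and 206 with Nutlin-3a. The siControl Nutlin-3a group was the highest, and the DMSO groups lay close together. In the authors' deposited tables C3 rose with Nutlin-3a by 1.40 ± 0.10 (SE) on the log2 scale in siControl, or 2.63-fold, and by 0.71 ± 0.14 in siRFX7, or 1.64-fold.

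The difference of the C3 responses was -0.68 ± 0.17 (SE; 95% interval -1.02 to -0.35), with an adjusted p of 0.00997 over 21339 genes by the two-sided normal test. Of the 8 genes tested, C3 was the 1 whose responses differed at that threshold, against 0.764% of all genes with a lower response in siRFX7 and 0.173% with a higher one. The siRFX7 effect on C3 comes from the same 16 libraries and is the same contrast seen from the other side. It was -0.18 ± 0.13 (SE, adjusted p 0.300 by DESeq2) under DMSO and -0.87 ± 0.10 (adjusted p 3.20e-15) under Nutlin-3a according to the authors' deposited tables, or 54.8% of the control level under Nutlin-3a. C3 carries no GTATCTA in 2 annotated 3′ untranslated regions. Since every group enters a pair of tables, the 4 comparisons share their libraries.

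C1R and C1S are the proteases of the first complement component, and their genes lie on chromosome 12. C1S (ENSG00000182326, 6988259 to 7071032, plus strand) rose with Nutlin-3a in both kinds of cells. Its level went from 245 to 466 normalised counts in siControl and from 273 to 517 in siRFX7. The C1S response in the authors' deposited tables was 0.93 ± 0.09 (SE) in siControl and 0.92 ± 0.09 in siRFX7 cells, 1.90-fold in each. The difference was -0.00478 ± 0.132 (95% interval -0.26 to 0.25, adjusted p 0.99996 by the normal test). With siRFX7, C1S was at 0.16 ± 0.11 in DMSO and 0.15 ± 0.08 in Nutlin-3a according to the authors' deposited tables, not called in either.

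C1R (ENSG00000159403, 7080199 to 7092607, minus strand) was not called for Nutlin-3a in either kind of cells. Its level was 306 and 349 normalised counts in siControl and 278 and 293 in siRFX7, with DMSO and Nutlin-3a in that order. The authors' deposited tables gave C1R responses of 0.19 ± 0.09 (SE, adjusted p 0.0873 by DESeq2) in siControl and 0.07 ± 0.11 in siRFX7. After centring on the median gene, the response in siControl was 0.22 with an adjusted p of 0.0446. With siRFX7, C1R was at -0.14 ± 0.10 under DMSO and at -0.25 ± 0.09 (adjusted p 0.0262 by DESeq2) under Nutlin-3a according to the authors' deposited tables. C1R overlaps C1RL, a related protease gene on the same strand, by 3021 bases, and 9.20% of its 75-base stretches also occur in C1RL, so part of its reads can be shared.

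CFB (ENSG00000243649), the protease of the alternative pathway, lies on chromosome 6, 31945650 to 31952084 (plus strand). It had a base mean of 3.58 in the authors' deposited table for siControl, with a log2 fold change of 0.86 ± 0.80 (SE, adjusted p 0.448 by DESeq2). At this depth no response was detectable. AL645922.1, a gene on the same strand, overlaps CFB by 6399 bases and holds 39.7% of its 75-base stretches.

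**Figure D2:**
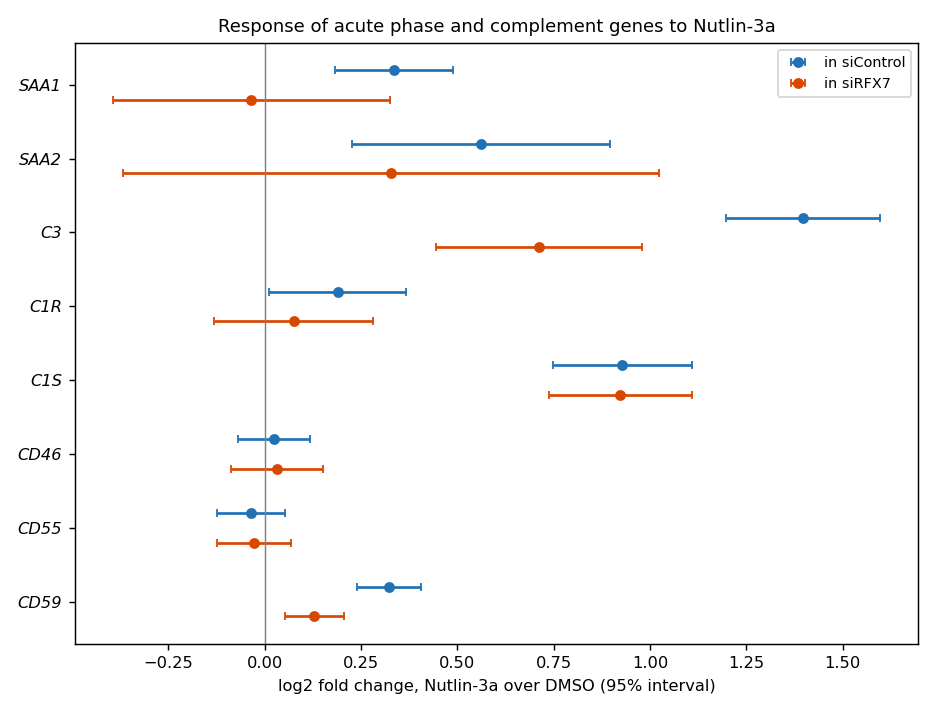
Log2 fold change with Nutlin-3a over DMSO for the 8 genes in both tables, in siControl (blue) and siRFX7 (orange) cells; points are the authors' values and bars 95% intervals from their SE. C3 stands at 1.40 in siControl and 0.71 in siRFX7, C1S at 0.93 and 0.92, and CD46 and CD55 lie near 0 in both.

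The membrane regulators were read at higher counts, and their log2 fold changes were at most 0.32 in size. CD46 (ENSG00000117335, chromosome 1, 207752057 to 207795513, plus strand), a cofactor for the cleavage of C3b, had levels between 2922 and 3046 normalised counts over the 4 groups. Its log2 fold changes in the authors' deposited tables were 0.02 ± 0.05 (SE) and 0.03 ± 0.06 with Nutlin-3a, and 0.03 ± 0.06 and 0.04 ± 0.05 with siRFX7. None was called, and the 95% interval of the CD46 siRFX7 effect under Nutlin-3a ran from -0.06 to 0.14.

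CD55 (ENSG00000196352, chromosome 1, 207321376 to 207386804, plus strand), which speeds the decay of C3 convertases, had levels of 2401 and 2343 normalised counts in siControl and 2641 and 2589 in siRFX7, with DMSO and Nutlin-3a in that order. It was slightly higher with siRFX7, by 0.14 ± 0.04 (SE, adjusted p 0.00828 by DESeq2) under DMSO and 0.14 ± 0.05 (adjusted p 0.0124) under Nutlin-3a according to the authors' deposited tables. Its responses to Nutlin-3a, -0.03 ± 0.05 in siControl and -0.03 ± 0.05 in siRFX7 according to the authors' deposited tables, were not called.

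CD59 (ENSG00000085063), which blocks assembly of the membrane attack complex, lies on chromosome 11, 33703010 to 33736491 (minus strand). Its level was 4896 normalised counts in siControl with DMSO, 6118 in siControl with Nutlin-3a, 6079 in siRFX7 with DMSO and 6645 in siRFX7 with Nutlin-3a. The siControl DMSO group was the lowest. In the authors' deposited tables CD59 was higher with siRFX7 by 0.31 ± 0.04 (SE, adjusted p 6.38e-12 by DESeq2) under DMSO and by 0.12 ± 0.04 (adjusted p 0.00798) under Nutlin-3a. It rose with Nutlin-3a by 0.32 ± 0.04 in siControl and 0.13 ± 0.04 in siRFX7 according to the authors' deposited tables. The difference of the CD59 responses was -0.19 ± 0.06 (95% interval -0.31 to -0.08) with an adjusted p of 0.0764 by the normal test. It passed when genes with a base mean under 100 were left out (0.0494) and when the statistics were divided by their robust SD (0.0394).

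**Figure D3:**
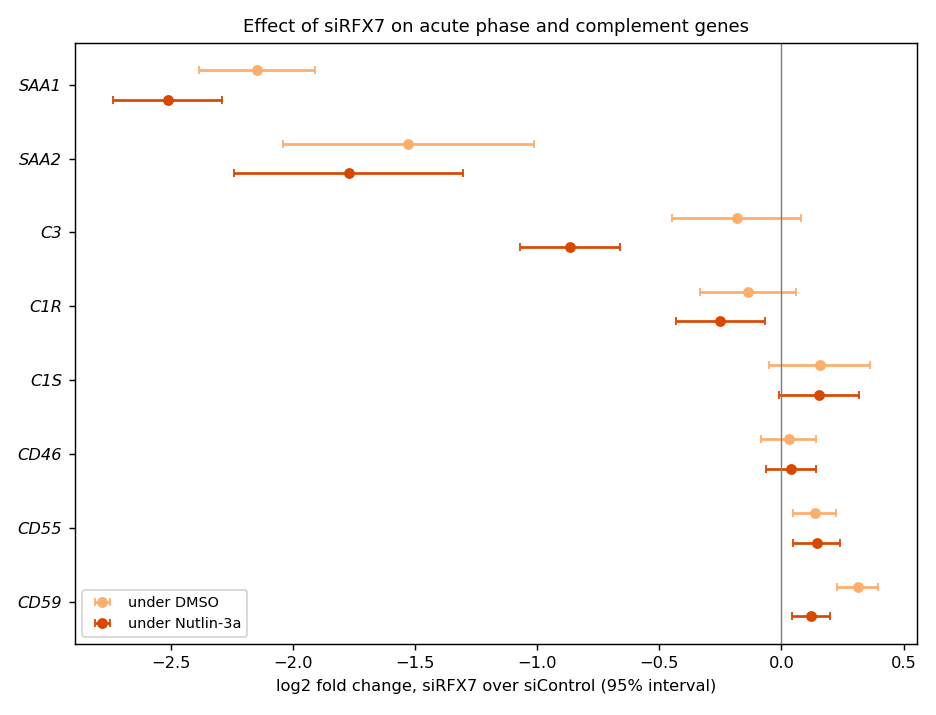
Log2 fold change with siRFX7 over siControl for the 8 genes, under DMSO (light) and Nutlin-3a (dark); points are the authors' values and bars 95% intervals from their SE. SAA1 and SAA2 lie below -1.5 under both treatments, C3 at -0.87 under Nutlin-3a and at -0.18 under DMSO, and CD59 and CD55 above 0.

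Over the set, Nutlin-3a raised 5 of 9 genes in siControl and lowered 0 (6 and 0 at an unadjusted DESeq2 p under 0.05), against 18.3% of all genes called higher and 19.6% called lower in the authors' deposited table. In siRFX7 it raised 3 of 8 and lowered 0 (3 and 0 unadjusted), against 18.7% and 20.3%. With siRFX7 under DMSO 2 of 8 were higher and 2 lower, against 19.9% and 17.5%. Under Nutlin-3a 2 of 8 were higher and 4 lower, against 17.2% and 15.4%. The median log2 fold changes of the genes listed were 0.34, 0.10, -0.05 and -0.10 in that order, beside 0.01, 0.00899, -0.00239 and -0.00535 over all genes. The rule used these comparisons, so nothing is read from the counts. Per kilobase of annotated exon, the level in siControl with DMSO was highest for SAA1 (655 normalised counts per kb), then CD59 (473), CD55 (406) and CD46 (336). It was lower for C1R (52.0), C1S (37.9), SAA2 (28.2) and C3 (17.1). The exon length counts every annotated exon of a gene, 796 bases for SAA1, 2227 for SAA2 and 10358 for CD59. This order, SAA1 above CD59 included, therefore depends on the annotation as well as on the reads. Neighbours in it cannot be tested without single libraries.

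Genes nearest to SAA1 and C3 were found by distance over the 4 log2 fold changes, among 12181 genes that had a symbol and reached a base mean of 100 in each table. Nearest to SAA1 were RFX7 (distance 0.467), MRPS35 (1.25), ATP6V0D1 (1.27), AHCYP2 (1.27) and AGK (1.32). SAA1 and RFX7, the targeted gene, were both among the 5 lowest fold changes with siRFX7 under each treatment. Their closeness follows from those values, which were known when SAA1 was chosen, and supports nothing further. SAA2 was below a base mean of 100 in all 4 comparisons, so its distance to SAA1 was not among those ranked. SAA1 itself had a base mean of 87.5 for Nutlin-3a in siRFX7. RFX7 (1 of 1 transcripts), MRPS35 (3 of 3), ATP6V0D1 (2 of 4) and AGK (7 of 10) carry the heptamer, and AHCYP2 is a pseudogene. Among genes called at a log2 fold change of -1 or lower with siRFX7, 62.3% carried the heptamer in DMSO and 45.5% in Nutlin-3a. These genes were picked by fold changes from which the heptamer had also been picked, so the matches support nothing. Nearest to C3 were FBXO32 (0.388), ESM1 (0.446), RAB40B (0.481), PLCXD2 (0.519) and KLHL24 (0.575). FBXO32, a ubiquitin ligase subunit, rose with Nutlin-3a by 1.06 in siControl and 0.58 in siRFX7, and was at -0.26 and -0.75 with siRFX7 under DMSO and Nutlin-3a in the authors' deposited tables. PLCXD2 and KLHL24 carry the heptamer in 1 of 3 transcripts each.

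Among 34 other complement components and soluble regulators, 18 were in any table. With Nutlin-3a in siControl 4 were higher and 1 lower in the authors' deposited table (all genes: 18.3% and 19.6%), with a median of 0.16. C1RL rose by 1.123 ± 0.06 (SE) and SERPING1, the inhibitor of C1R and C1S, by 0.31 ± 0.06, while COLEC12, a scavenger receptor, was lower at -0.68 ± 0.15. CLU, a regulator of the terminal pathway, was at 0.19 ± 0.05. With siRFX7 under Nutlin-3a 1 of 13 was higher and 1 lower in the authors' deposited table (all genes: 17.2% and 15.4%), with a median of -0.15. Those were SERPING1 at 0.18 ± 0.06 and C1RL at -0.59 ± 0.08 (SE). With Nutlin-3a in siRFX7 cells 5 of 15 were higher and 1 lower (all genes: 18.7% and 20.3%), with a median of 0.19. With siRFX7 in DMSO 0 of 13 were higher (1 at an unadjusted DESeq2 p under 0.05) and 2 lower, CFD and C1RL (all genes: 19.9% and 17.5%). C1RL was at -0.55 ± 0.08 there in the authors' deposited table. No response of the 15 genes was called different between siRFX7 and siControl cells by the normal test (0 adjusted and 0 unadjusted). Over all genes 0.764% were called lower and 0.173% higher, and 6.32% had an unadjusted p under 0.05, so nothing is read from the 0.

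Of 10 complement receptors, 6 were listed, and Nutlin-3a raised 4 of them in the authors' deposited siControl table and lowered 0 (4 and 0 at an unadjusted DESeq2 p under 0.05), against 18.3% and 19.6% of all genes. ITGAX and ITGAM, the alpha chains of the integrins that bind cleaved C3, rose by 1.27 ± 0.13 and 1.03 ± 0.14 (SE), and their beta chain ITGB2 by 0.45 ± 0.09. These are also leukocyte integrins, and PTPRC and CD68 had base means of 5.21 and 2.57 in the same table. With siRFX7 0 of 6 were called under either treatment by the authors' DESeq2 test. Over all genes 19.9% were called higher and 17.5% lower in DMSO, and 17.2% and 15.4% in Nutlin-3a. With 6 genes, nothing is read from the 0. At an unadjusted DESeq2 p under 0.05 the count was 0 in DMSO and 1, ITGB2, in Nutlin-3a. The lowest adjusted p among the named receptors, 0.0678 for ITGB2 under Nutlin-3a, became 0.0494 without genes of a base mean under 100.

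Of 21 other acute phase proteins 6 were in any table, and CRP, HP, ORM1, LBP and the fibrinogen chains were in none. SERPINA1, the elastase inhibitor alpha-1-antitrypsin, rose with Nutlin-3a by 0.52 ± 0.06 (SE) in siControl and 0.23 ± 0.06 in siRFX7 according to the authors' deposited tables. With siRFX7 it was at -0.07 ± 0.05 under DMSO and -0.35 ± 0.07 (adjusted p 1.78e-06 by DESeq2) under Nutlin-3a. The difference of its responses was -0.28 ± 0.08 with an adjusted p of 0.0764 by the normal test, and 0.0494 and 0.0394 in the settings named for CD59. With siRFX7 under Nutlin-3a SERPINA1 was the 1 of 5 listed genes called, and it was lower (all genes called lower: 15.4%). With siRFX7 under DMSO the 1 of 6 called was PTX3, a long pentraxin, which was higher at 0.48 in the authors' deposited table (all genes called higher: 19.9%). Under Nutlin-3a the siRFX7 effect on PTX3 was 0.15, not called (adjusted p 0.0972 by DESeq2). With Nutlin-3a PTX3 was at -0.13 in siControl, not called, and lower at -0.46 in siRFX7 (adjusted p 5.78e-06 by DESeq2) in the authors' deposited tables.

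The signalling genes upstream of the acute phase were better covered, with 29 of 31 in every table. With siRFX7 under DMSO 7 were higher and 9 lower, and under Nutlin-3a 6 were higher and 11 lower in the authors' deposited tables, with medians of -0.03 and -0.10. Over all genes the shares called were 19.9% higher and 17.5% lower in DMSO, and 17.2% and 15.4% in Nutlin-3a. JAK1, a kinase of the IL-6 receptor complex, was at -0.83 ± 0.04 (SE) in DMSO and -0.78 ± 0.03 in Nutlin-3a according to the authors' deposited tables. STAT3, the transcription factor downstream of it, was at -0.57 ± 0.04 and -0.69 ± 0.04 in the same authors' deposited tables. IL1RAP, the accessory chain of the IL-1 receptor, was at -0.43 ± 0.06 and -0.61 ± 0.06, and IL6R, which binds IL-6, was higher at 0.47 ± 0.06 and 0.71 ± 0.07 in the authors' deposited tables. JAK1 and STAT3 carry the heptamer GTATCTA, in 1 of 1 and 1 of 5 transcripts, and IL1RAP and IL6R do not. The part of these matches in the values was not tested.

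With Nutlin-3a in siControl 9 of the 29 were higher and 1 lower in the authors' deposited table (all genes: 18.3% and 19.6%), with a median of 0.05. In siRFX7 cells 11 of the 29 were higher and 7 lower with Nutlin-3a (all genes: 18.7% and 20.3%), with a median of 0.00553. IL1A, a form of IL-1, rose by 1.596 ± 0.17 (SE) in siControl and 1.59 ± 0.16 in siRFX7 according to the authors' deposited tables. LIF, an IL-6 family cytokine, rose by 0.75 ± 0.06 and 0.59 ± 0.05, and NFKBIZ, a nuclear IkB protein, by 0.54 ± 0.06 and 0.36 ± 0.07 in the authors' deposited tables. TNF, measured at a base mean of 68.0, was lower at -0.59 ± 0.18 in siControl and -1.36 ± 0.19 in siRFX7 according to the authors' deposited tables. The difference of -0.77 ± 0.27 was not called (adjusted p 0.206 by the normal test). In the authors' deposited tables TNF was higher with siRFX7 under DMSO, at 0.73 ± 0.15 (adjusted p 7.44e-06 by DESeq2). Under Nutlin-3a the siRFX7 effect on TNF was -0.05 ± 0.23, not called.

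**Figure D4:**
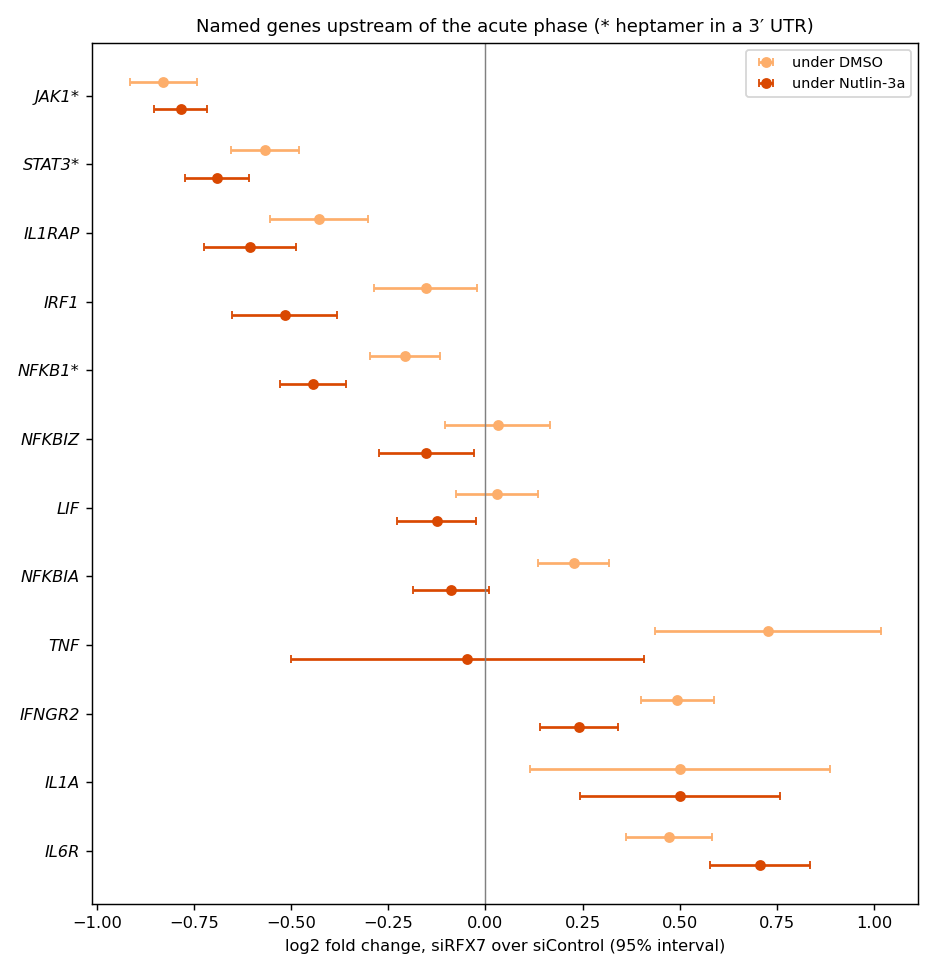
Log2 fold change with siRFX7 over siControl for the named genes upstream of the acute phase, under DMSO (light) and Nutlin-3a (dark), ordered by the value under Nutlin-3a; points are the authors' values, bars 95% intervals from their SE, and an asterisk marks the heptamer in an annotated 3′ untranslated region. JAK1, STAT3, IL1RAP, IRF1 and NFKB1 lie below 0 and IL6R, IL1A and IFNGR2 above 0 under both treatments.

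Promoters (300 bases each, around the start of a transcript) of 5 members, CFB, C1R, CD46, CD55 and CD59, were found by symbol in the RefSeq table on GRCh38.p14, 10 promoters in all. The kappaB-like sequence, 3 G bases, 5 bases of any kind and 2 C bases, was in 9 of these 10 on either strand, and in 58.7% of all 35116 promoters. The X-box half-site GTTGCCA, a form of the sequence bound by RFX proteins, was in 1 of the 10, that of CD55, against 4.08% of all promoters. GTTGCTA was in 0 of the 10, against 2.85%. The CD55 promoter is shown around the half-site, which is in capitals. The half-site begins at base -212 from the RefSeq start, and the stretch shown is chr1:207321440-207321499 (plus strand). That stretch lies inside the GENCODE span of CD55, which begins at 207321376, so the half-site is not upstream of the annotated gene. A match is a description of these letters only.
CD55: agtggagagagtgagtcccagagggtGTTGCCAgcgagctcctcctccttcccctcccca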

How the data were processed

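Poly(A) RNA of 16 U2OS libraries was sequenced; groups came from the sample titles. Per the submitters' processing notes, the reads were processed with Trimmomatic 0.39, cutadapt 2.10 and featureCounts 1.6.5 on hg38 and compared with DESeq2 1.20.0; the aligner and annotation are not given in the sources used here. The 4 deposited tables give the base mean (a signal: the mean normalised count over the 8 libraries of a comparison), the authors' log2 fold change with its standard error, a deposited score (the Wald statistic), and the authors' p-value and adjusted p-value. Whether fold changes were shrunken is not stated. RFX7, CDKN1A and MDM2 gave the direction of the tables.

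With Python 3.11.15, group levels were worked out from base mean and fold change for equal groups, and scaled between tables by the median ratio of 12747 genes. The 2 values of a member's level differed by at most 0.0157 (log2). The difference of responses was siRFX7 minus siControl, SE from summed squares, two-sided normal p, Benjamini-Hochberg over 21339 genes; this step was tested on simulated data. Members and lists were chosen with earlier results of these data known. Named genes are the members, 3 label checks, up to 4 called genes per list with the largest change (base mean of at least 50) in siRFX7 under Nutlin-3a and in Nutlin-3a in siControl, and the 5 nearest to SAA1 and to C3. IFNGR2, IRF1, NFKB1, NFKBIA, CFD and PTX3 were added after their values were seen. No count model was fitted, since no counts were used. Positions are from GENCODE 29. Alternatives changed the threshold (0.01), size (0.5), base mean (100), centring and, for the difference, the scale of the statistic and the pair of tables.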

Additional observations from a re-analysis of the deposited data

Results flagged for a closer look

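The response to Nutlin-3a differed between siRFX7 and siControl cells for 9 of the genes named here, by the two-sided normal test over all genes. All 9 responses were lower in siRFX7, which was also the commoner direction over all genes (163 called lower, 0.764%, and 37 higher, 0.173%). C3 was the member, with a difference of -0.68 ± 0.17 (SE; adjusted p 0.00997). Another 4 are upstream signalling genes, which were named because their responses differed, so their number and direction support nothing. NFKBIA, an inhibitor of NF-kB, differed by -0.32 ± 0.07 (adjusted p 0.000924), from 0.10 ± 0.05 in siControl to -0.22 ± 0.05 in siRFX7 in the authors' deposited tables. NFKB1, an NF-kB subunit with the heptamer in 4 of 4 transcripts, differed by -0.24 ± 0.06 (adjusted p 0.0221). IRF1, an interferon-induced transcription factor, differed by -0.37 ± 0.10 (adjusted p 0.0269). IFNGR2, a chain of the interferon-gamma receptor, differed by -0.25 ± 0.07 (adjusted p 0.0354) and was higher with siRFX7 under both treatments, by 0.49 ± 0.05 and 0.24 ± 0.05 in the authors' deposited tables. CDKN1A, a check of the labels, differed by -0.26 ± 0.05 (adjusted p 0.000305). It was higher with siRFX7 under both treatments, by 0.60 ± 0.04 in DMSO and 0.33 ± 0.04 in Nutlin-3a in the authors' deposited tables. The last 3 were named for a pattern near that of C3, which sets their direction: RAB40B differed by -0.84 ± 0.15 (adjusted p 1.29e-05), KLHL24 by -0.54 ± 0.14 (0.0156) and PLCXD2 by -0.24 ± 0.07 (0.0351).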

How the results depend on the processing

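No paired analysis was possible because the tables hold no value of a single library; for the same reason leaving out each replicate was not run. Requiring a size of at least 0.5 left 3 members called for Nutlin-3a in siControl, and for siRFX7 it left 2 in DMSO and 3 in Nutlin-3a. For the difference of responses, 2 members were called, C3 and CD59, without genes of a base mean under 100, and 2 with the statistics over their robust SD. The other counts of members stayed within 1.5 times the main count. Shares of all genes called under these changed settings are not given here, so nothing is read from these counts. Of the single values under all settings, 575 were counted as unchanged, 52 were no longer called and 10 were newly called. Among the 575 were 32 group levels worked out from the other table, which have no threshold, and 4 values of SAA1 with SAA2 added. The sign of CLU with siRFX7 under DMSO, which was not called, turned to -0.000311 after centring (0.01 in the authors' deposited table). SAA1 with SAA2 added, an alternative chosen after seeing the data, was at 0.03 for Nutlin-3a in siRFX7, against -0.03 for SAA1 alone, also not called. SAA2, CFB and, in the table for Nutlin-3a in siRFX7, SAA1 fell outside the base mean setting, and their low counts limit what could be detected.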
